A study of Saccharomyces cerevisiae with 12 samples.

Results

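The seripauperins (PAU), the DAN and TIR proteins and Tip1 are related serine-rich or serine-poor mannoproteins that yeast builds into its cell wall. The 31 genes examined were chosen by name: *PAU1* to *PAU24*, *DAN1*, *DAN4*, *TIR1*, *TIR2*, *TIR3*, *TIR4* and *TIP1*. The arrays gave values for 28 of the 31, which is 28 of 5769 genes with values: 21 of 24 PAU genes, both DAN genes, all 4 TIR genes and *TIP1*. *PAU1*, *PAU6* and *PAU22* were empty on all 12 arrays. Expression was measured on 1-color arrays in the WT strain BY4741 and in a *TUP1* deletion strain (*tup1Δ*) of the yeast deletion collection. Both strains were grown in shaken YPD cultures at 30°C to mid-log phase and then received the solvent DMSO or 100 nM rapamycin, which inhibits the TOR kinases, for 30 min. WT had 4 arrays per treatment, from 4 cultures that were each divided between DMSO and rapamycin, and *tup1Δ* had 2 arrays per treatment. The deletion was studied in 1 strain, so that all *tup1Δ* arrays share whatever else that strain carries.

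Laboratory yeast expresses most of these wall genes weakly in air and strongly when oxygen is scarce. In air, the genes are repressed through heme-dependent and Tup1-dependent routes, and the Tup1 protein works with Cyc8 as a corepressor that DNA-binding repressors such as Rox1 and Mot3 bring to promoters. Without oxygen, the sterol-sensing activator Upc2 induces the DAN and TIR genes, and the composition of the wall shifts toward their products. The PAU genes form one of the largest gene families of yeast, are nearly identical in sequence and lie mostly near chromosome ends.

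The values are log2 expression values, with array medians between 11.48 and 11.52 and single values between 7.85 and 15.52. A gene was called at an adjusted p under 0.05 from limma over all 5769 genes together with a log2 fold change of 1 or more in either direction. *TUP1* itself had values between 13.66 and 14.04 on the 8 WT arrays and between 7.95 and 8.23 on the 4 *tup1Δ* arrays. The probes behind each PAU row were not analysed here, and probes of one PAU gene may bind transcripts of another. The values of single PAU genes are therefore uncertain, and counts that include PAU genes may hold the same signal repeatedly. More RNA per cell and more expressing cells cannot be told apart on these arrays.

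In DMSO, 19 of the 28 genes were called higher in *tup1Δ* than in WT and 0 were called lower, whereas 4.13% of all genes were called higher and 0.451% lower. The 19 comprised *DAN1*, all 4 TIR genes and 14 PAU genes, and they were 67.9% of the wall genes and 7.98% of all genes called higher. The median log2 fold change of the 28 genes was 1.52, against -0.08 over all genes. By adjusted p alone, 27 were higher and 1 was lower, with backgrounds of 15.3% and 27.3%. The values of *tup1Δ* and WT did not overlap for any of the 28 genes, which held for 63.1% of all genes, and for 27 of them *tup1Δ* was the higher strain, as for 22.7% of all genes.

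**Figure D1:**
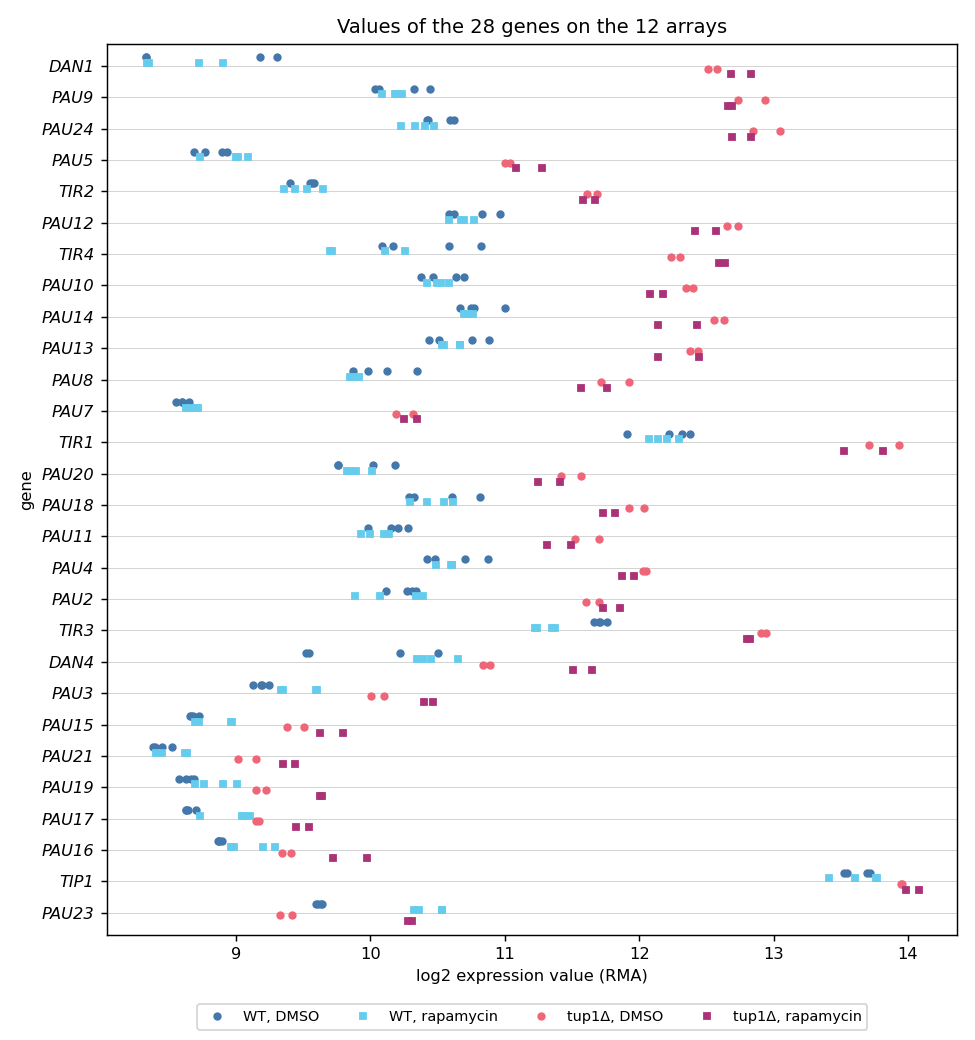
Log2 expression values (x axis) of the 28 genes (y axis, ordered by the strain difference in DMSO), with 1 point for each of the 12 arrays, colored by strain and treatment. In *DAN1* the 4 *tup1Δ* points lie between 12.51 and 12.83 and the 8 WT points between 8.33 and 9.31, whereas the *PAU23* points separate by treatment.

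*DAN1* (YJR150C), an anaerobic wall mannoprotein gene, differed most. Its log2 values in DMSO were 9.18, 9.31, 8.33 and 8.33 in WT replicates 1 to 4 and 12.51 and 12.58 in *tup1Δ*. The strains were thus far apart, although the WT arrays themselves fell into a higher and a lower pair. The log2 fold change was 3.76 (standard error, SE, 0.28, adjusted p = 1.43e-06 in limma). The values of WT replicates 3 and 4 lay close to those of the deleted *TUP1* gene and to the lowest value on the arrays, so the fold change rests on a reference near the low end of the scale. With only WT replicates 1 and 2 as reference it was 3.30, and with only replicates 3 and 4 it was 4.21.

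*DAN4* (YJR151C), which encodes another anaerobic mannoprotein and is the next gene to *DAN1* on chromosome X, was not called in DMSO. Its values were 10.50, 10.22, 9.54 and 9.52 in WT and 10.84 and 10.89 in *tup1Δ*. The strains did not overlap, and WT replicates 1 and 2 lay closer to *tup1Δ* than replicates 3 and 4 did. The log2 fold change was 0.92 (95% confidence interval 0.39 to 1.44, adjusted p = 0.00988 in limma). *DAN4* passed the fold threshold without WT replicate 1 in DMSO, with 1.10, or without replicate 2, with 1.01, and its log2 fold change was 0.50 with only WT replicates 1 and 2 and 1.33 with only replicates 3 and 4. Without either *tup1Δ* array in DMSO its adjusted p was 0.0580 or 0.0691.

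The 4 TIR genes encode mannoproteins of the Tip1 family, and all 4 rose. *TIR2* (YOR010C) had values of 9.40, 9.57, 9.58 and 9.55 in WT and 11.61 and 11.69 in *tup1Δ*. Its log2 fold change was 2.13 (SE 0.08, adjusted p = 4.85e-09 in limma). *TIR4* (YOR009W), the next gene to *TIR2*, had values of 10.59, 10.82, 10.08 and 10.17 in WT and 12.24 and 12.30 in *tup1Δ*, with a log2 fold change of 1.86 (SE 0.21, adjusted p = 4.46e-05 in limma). In WT, *TIR4* showed the split between replicates 1 and 2 and replicates 3 and 4 that *DAN1* and *DAN4* showed, and *TIR2* did not.

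*TIR1* (YER011W), a gene also known to respond to cold, had values of 11.91, 12.22, 12.38 and 12.32 in WT and 13.71 and 13.93 in *tup1Δ*. Its log2 fold change was 1.62 (SE 0.13, adjusted p = 3.18e-06 in limma). The 4 WT values of *TIR3* (YIL011W) lay closer together, at 11.76, 11.71, 11.70 and 11.66, with 12.91 and 12.94 in *tup1Δ*. *TIR3* had the smallest rise of the 4 TIR genes, with a log2 fold change of 1.22 (SE 0.06, adjusted p = 2.86e-08 in limma).

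*TIP1* (YBR067C), a major wall mannoprotein gene that is active in air and gave its name to the family, differed less. Its values were 13.54, 13.52, 13.70 and 13.72 in WT and 13.96 and 13.95 in *tup1Δ*. The *tup1Δ* values lay just above the WT values, with a log2 fold change of 0.33 (95% confidence interval 0.11 to 0.55, adjusted p = 0.0190 in limma), and *TIP1* was not called. Without either *tup1Δ* array its adjusted p was 0.102 or 0.0943.

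Of the 21 PAU genes, 14 were called higher in *tup1Δ* in DMSO, against 4.13% of all genes. The log2 fold change was above 0 for 20 of 21, and for 2211 of all 5769 genes. *PAU9* (YBL108C-A) rose most, from 10.44, 10.32, 10.06 and 10.04 in WT to 12.74 and 12.93 in *tup1Δ*, a log2 fold change of 2.62 (SE 0.11, adjusted p = 9.78e-09 in limma). *PAU24* (YBR301W) was 10.62, 10.59, 10.42 and 10.43 in WT and 12.85 and 13.05 in *tup1Δ*, with a log2 fold change of 2.43. *PAU5* (YFL020C) was 8.69, 8.77, 8.93 and 8.90 in WT and 11.00 and 11.04 in *tup1Δ*, with a log2 fold change of 2.20. Each of these differences was several times the distance between arrays of one strain. The log2 fold changes were 1.95 for *PAU12*, 1.83 for *PAU10*, 1.80 for *PAU14*, 1.76 for *PAU13*, 1.74 for *PAU8* and 1.66 for *PAU7*. They were 1.56 for *PAU20*, 1.47 for *PAU18*, 1.46 for *PAU11*, 1.42 for *PAU4* and 1.39 for *PAU2*. Among the 14 called PAU genes the highest adjusted p was that of *PAU18*, 1.23e-05.

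The remaining 7 PAU genes, *PAU3*, *PAU15*, *PAU16*, *PAU17*, *PAU19*, *PAU21* and *PAU23*, did not reach the fold threshold. For 6 of them the log2 fold change lay between 0.49 (*PAU16*) and 0.87 (*PAU3*), with an adjusted p of at most 0.00204 from limma and no overlap between the strains. Their mean values in WT in DMSO were low on these arrays, between 8.44 for *PAU21* and 9.19 for *PAU3*. *PAU5* and *PAU7*, which were called, had means in the same range, 8.82 and 8.60. The means of all 21 PAU genes ran from *PAU21*, with values of 8.39, 8.40, 8.45 and 8.52, to *PAU14*, with values of 11.00, 10.77, 10.75 and 10.67. The probes behind these rows were not analysed, so their order cannot be read as an order of transcript abundance.

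*PAU23* (YLR037C) was the exception in sign. Its values were 9.64, 9.64, 9.61 and 9.60 in WT and 9.33 and 9.42 in *tup1Δ*, slightly lower in the deletion strain and without overlap. The log2 fold change was -0.25 (95% confidence interval -0.40 to -0.10, adjusted p = 0.0132 in limma). Without *tup1Δ* replicate 1 in DMSO it was -0.20, with an adjusted p of 0.131.

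The comparison of the strains was repeated on the rapamycin arrays, which are different arrays but, for WT, come from the same cultures. There, *tup1Δ* was called higher than WT for 20 of the 28 genes and lower for 0, against backgrounds of 4.52% and 0.867%. By adjusted p alone, 27 genes were higher and 0 lower, against 16.2% and 27.5%, and the strains did not overlap for 28 of 28, as for 59.4% of all genes, with *tup1Δ* higher for 27, as for 21.4%. The 20 genes were the 19 called in DMSO and *DAN4*, and they were 71.4% of the wall genes and 7.66% of all genes called higher. The median log2 fold change was 1.5, against -0.09 over all genes. The sign was the same in DMSO and in rapamycin for all 28 genes. For 25 of 28 the log2 fold changes under the 2 treatments lay within 0.25 of each other. The shares of all genes for these 2 counts were not computed. Among all genes, only 1.16% were called for a strain difference in the rapamycin response.

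**Figure D2:**
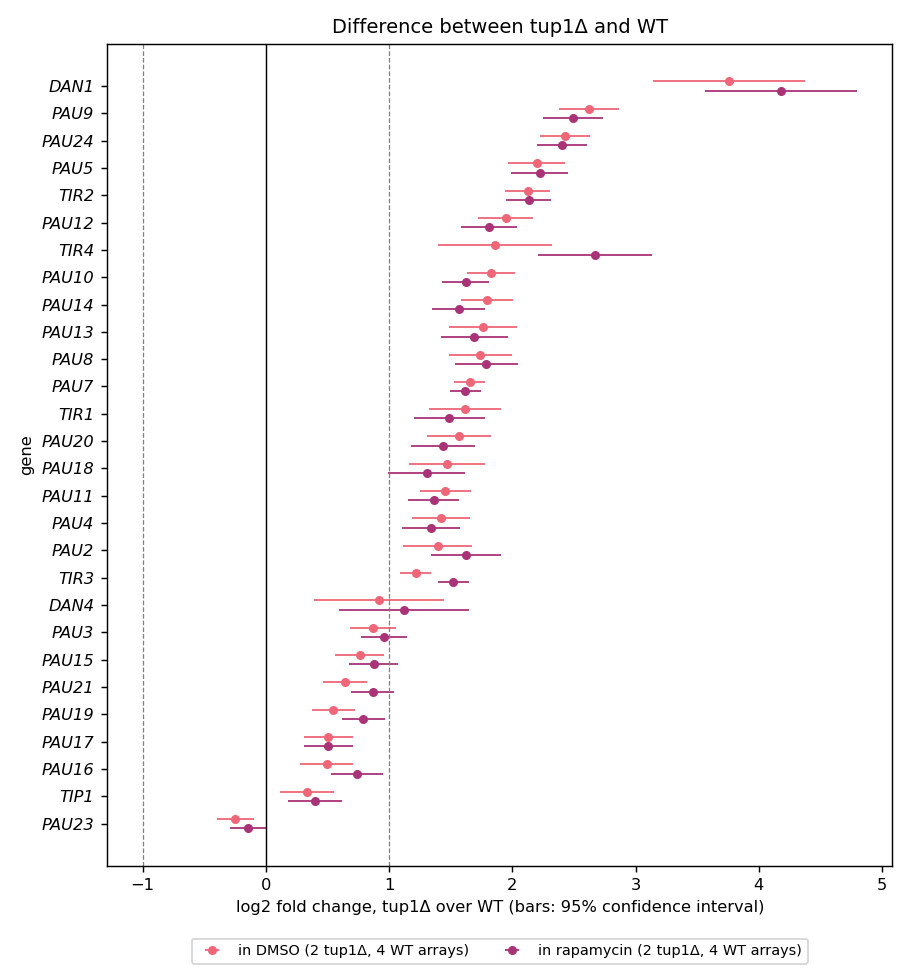
Log2 fold change of *tup1Δ* over WT (x axis) for the 28 genes (y axis) in DMSO and in rapamycin, with 95% confidence intervals from limma as bars and dashed lines at the fold threshold of 1. The DMSO and rapamycin estimates lie close to each other in most genes, and *TIR4* has the largest distance, 1.86 against 2.67.

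In rapamycin, *DAN1* had values of 8.91, 8.72, 8.33 and 8.35 in WT and 12.83 and 12.68 in *tup1Δ*. The log2 fold change was 4.18 (SE 0.28, adjusted p = 5.04e-07 in limma), again with WT replicates 3 and 4 near the low end of the scale. *TIR4* followed with 10.26, 10.11, 9.71 and 9.70 in WT and 12.64 and 12.59 in *tup1Δ*, a log2 fold change of 2.67. Both genes thus kept the pairwise split of the WT arrays, at a size far below the distance to *tup1Δ*.

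*DAN4* was called in rapamycin, with values of 10.65, 10.45, 10.39 and 10.35 in WT and 11.65 and 11.51 in *tup1Δ*. Its log2 fold change was 1.12 (SE 0.24, adjusted p = 0.00339 in limma). The other TIR genes had log2 fold changes of 2.13 (*TIR2*), 1.52 (*TIR3*) and 1.49 (*TIR1*), and *TIP1* had 0.39. The 14 PAU genes called in both treatments ranged from 1.30 (*PAU18*) to 2.5 (*PAU9*), with 2.40 for *PAU24* and 2.22 for *PAU5*. *PAU23* was again slightly lower in *tup1Δ*, by a log2 fold change of -0.14 (95% confidence interval -0.29 to 0.01, adjusted p = 0.111 in limma). *PAU3* stood just under the fold threshold, with 0.96, and passed it without WT replicate 3 in rapamycin, with 1.01, or without replicate 4, with 1.00.

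Rapamycin gave smaller differences in the wall genes than the deletion. In WT, 0 of the 28 genes were called, against a background of 13.2%, and the median log2 fold change was -0.03, against 0.06 over all genes. By adjusted p alone, 6 genes were higher and 2 lower, with backgrounds of 37.8% and 28.4%, and 8 genes had an unadjusted p under 0.05. The values of the treatments did not overlap for 6 of the 28 genes, a state found in 59.5% of all genes. In *tup1Δ*, 0 of 28 were called, against 11.9%, and the median was 0.01, against 0.03 over all genes. There, 8 were higher and 1 was lower by adjusted p alone, with backgrounds of 29.6% and 23.5%, and 10 had an unadjusted p under 0.05.

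*PAU23* had the largest response among the 28 genes in both strains. It was 9.64, 9.64, 9.61 and 9.60 in DMSO and 10.36, 10.32, 10.54 and 10.53 in rapamycin in WT, higher in 4 of 4 cultures. The log2 fold change was 0.82 (SE 0.06, adjusted p = 1.89e-07 in limma). In *tup1Δ* it was 9.33 and 9.42 in DMSO and 10.31 and 10.28 in rapamycin, a log2 fold change of 0.92 (SE 0.08, adjusted p = 2.49e-06 in limma). *PAU23* was thus separated by treatment in both strains, by more than it differed between the strains.

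**Figure D3:**
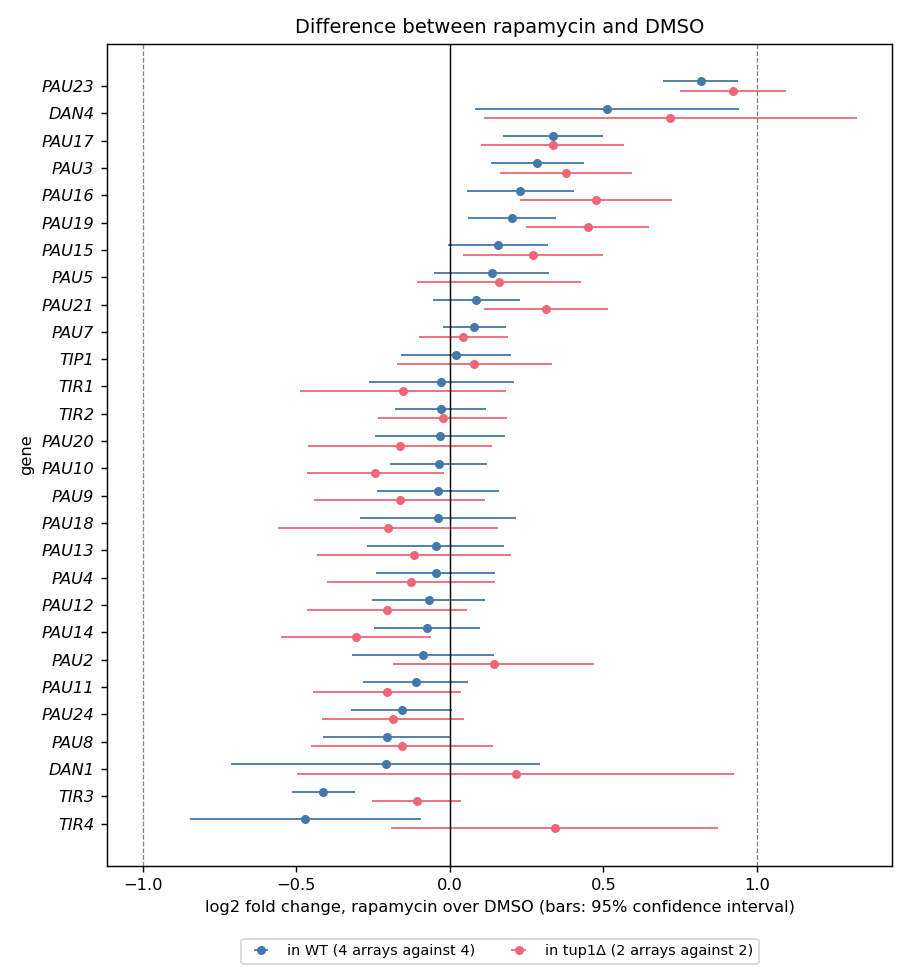
Log2 fold change of rapamycin over DMSO (x axis) for the 28 genes (y axis) in WT and in *tup1Δ*, with 95% confidence intervals from limma as bars and dashed lines at the fold threshold of 1. No gene reaches the threshold in either strain, *PAU23* is highest with 0.82 and 0.92, and *TIR4* has opposite signs, -0.47 and 0.34.

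Outside the PAU family, *DAN4* was the 1 gene higher in rapamycin at an adjusted p under 0.05 in both strains. Within the 4 WT cultures, rapamycin minus DMSO was 0.15, 0.22, 0.85 and 0.83, and the log2 fold change was 0.51 (SE 0.19, adjusted p = 0.0369 in limma). In *tup1Δ* it was 0.72 (SE 0.28, adjusted p = 0.0473 in limma). The rise in WT was thus mostly that of replicates 3 and 4, and the adjusted p in WT rose to 0.104 without WT replicate 3 or without replicate 4 in DMSO. It was between 0.0503 and 0.0877 without WT replicate 1, 2 or 3 in rapamycin or without either *tup1Δ* array in DMSO. In *tup1Δ* the adjusted p lay above 0.05 without any 1 of the 4 *tup1Δ* arrays, from 0.107 to 0.167, and without any 1 of the 4 WT rapamycin arrays, from 0.0515 to 0.0603.

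The PAU genes are described for rapamycin in the groups called and not called between the strains, a grouping that was made after the values were seen and was not tested. The 7 PAU genes not called between the strains had log2 fold changes from 0.09 to 0.82 in WT, with 5 of 7 higher at an adjusted p under 0.05, against 37.8% of all genes. In *tup1Δ* they had 0.27 to 0.92, with 7 of 7 higher, against 29.6%. The 14 called PAU genes had values on both sides of 0, from -0.21 to 0.14 in WT, with 0 past the adjusted p, and from -0.31 to 0.16 in *tup1Δ*. *PAU5* and *PAU7* were slightly above 0 in both strains, with 0.14 and 0.08 in WT and 0.16 and 0.04 in *tup1Δ*. *PAU14* passed the adjusted p in *tup1Δ*, at -0.31 (adjusted p = 0.0366 in limma), but without *tup1Δ* replicate 2 in rapamycin it had -0.16 (adjusted p = 0.314), and without replicate 1 in DMSO its adjusted p was 0.155.

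In WT, the values of the 14 called PAU genes averaged pairs of cultures that differed. With only WT replicates 1 and 2, 12 of the 14 were below 0, and with only replicates 3 and 4, 11 of the 14 were above 0. *PAU4* had -0.24 (adjusted p = 0.0249 in limma) with the first pair and 0.15 (adjusted p = 0.0174) with the second, and *PAU12* had -0.27 (adjusted p = 0.0188) and 0.13 (adjusted p = 0.0816). *PAU8* and *PAU24* passed the adjusted p with the first pair only, at -0.35 and -0.29. The rises of PAU genes not called between the strains depended on the pair as well. With the first pair only, *PAU3* had 0.13 (adjusted p = 0.0956 in limma) and *PAU16* had 0.09 (adjusted p = 0.373). *PAU17* then had 0.22 (adjusted p = 0.0817) and *PAU19* had 0.13 (adjusted p = 0.0847). With all WT arrays, *PAU4* had -0.05 (adjusted p = 0.667 in limma). The labels do not name these pairs, and the split between them was seen in these same values. A fit with 1 pair leaves out the distance between pairs, so its adjusted p does not measure the spread over the 4 cultures.

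With culture as a replicate block, other small responses passed the adjusted p. In WT these were *PAU15* (0.0293 with a random and 0.0362 with a fixed block), *PAU8* (0.0426, random) and *PAU5* (0.0453, fixed). In *tup1Δ* they were *PAU10* (0.0215, random, and 0.0328, fixed) and *TIR4* (0.0150, fixed). None of these reached the fold threshold. For *tup1Δ* the block paired arrays by replicate number only, as the labels do not state that its cultures were divided. Deviations of these paired *tup1Δ* arrays correlated at 0.0637 over all genes and at 0.426 over the 28 wall genes.

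The comparisons of strains and of treatments share arrays, so these values are given side by side only. In WT the responses beside *PAU23* were 0.34 for *PAU17*, 0.28 for *PAU3*, 0.23 for *PAU16* and 0.20 for *PAU19*. Some PAU responses stayed below an adjusted p of 0.05 in every alternative fit in which they were tested. Among PAU genes these were only *PAU16* (0.47) and *PAU19* (0.45) in *tup1Δ*, and *PAU23* in both strains. The fall of *TIR3* in WT stayed below it as well, with an adjusted p of at most 0.000591 in limma. The largest fall among PAU genes in WT was that of *PAU8*, with -0.21 (adjusted p = 0.0764 in limma).

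*TIR3* and *TIR4* were the genes lower in rapamycin in WT. *TIR3* was 11.76, 11.71, 11.70 and 11.66 in DMSO and 11.37, 11.24, 11.35 and 11.22 in rapamycin, without overlap, with a log2 fold change of -0.41 (SE 0.05, adjusted p = 1.30e-05 in limma). *TIR4* had -0.47 (SE 0.17, adjusted p = 0.0303 in limma), with 4 of 4 cultures lower but with overlap between the treatments. Without WT replicate 1 or 2 in DMSO, or without replicate 3 or 4 in rapamycin, its adjusted p was between 0.0761 and 0.0857. In *tup1Δ*, *TIR3* had -0.11 (95% confidence interval -0.25 to 0.04) and *TIR4* had 0.34 (95% confidence interval -0.19 to 0.87), neither past the adjusted p. *TIR1*, *TIR2* and *TIP1* had log2 fold changes of -0.03, -0.03 and 0.02, and *DAN1* had -0.21 (adjusted p = 0.446 in limma).

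Whether the strains responded differently to rapamycin was tested directly. None of the 28 genes was called, with a background of 1.16%, and 0 passed the adjusted p alone, with a background of 5.77%. At an unadjusted p under 0.05 there were 2, *TIR3* and *TIR4*. For *TIR4*, rapamycin minus DMSO was -0.33, -0.71, -0.37 and -0.47 in the 4 WT cultures and 0.40 and 0.29 for the same-numbered *tup1Δ* arrays. The responses thus had opposite signs in the strains, with a difference of 0.81 (95% confidence interval 0.16 to 1.46, adjusted p = 0.157 in limma). For *TIR3* the values were -0.39, -0.47, -0.35 and -0.44 in WT and -0.08 and -0.14 in *tup1Δ*, a difference of 0.30 (95% confidence interval 0.12 to 0.48, adjusted p = 0.0561 in limma).

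Both TIR differences depended on the fit. With only WT replicates 1 and 2, the adjusted p in limma was 0.00620 for *TIR4*. With only replicates 3 and 4 it was 3.80e-05 for *TIR4* and 0.0164 for *TIR3*. Fits with 1 WT pair leave out the distance between the pairs, so these p-values do not measure the spread over all WT cultures. With culture as a random replicate block, the adjusted p was 0.0269 for *TIR4* and 0.0112 for *TIR3*. With culture as a fixed replicate block, it was 0.00599 and 0.0354. The labels state that WT cultures were divided, and for *tup1Δ* they say only that the treatment was the same. Both differences stayed under the fold threshold of 1 in these fits. For *TIR3* the adjusted p was also 0.0356 without WT replicate 1 in rapamycin, 0.0372 after another quantile normalization and 0.0474 after median centring. Over all alternatives it ranged from 0.0112 to 0.222 for *TIR3* and from 3.80e-05 to 0.400 for *TIR4*.

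**Figure D4:**
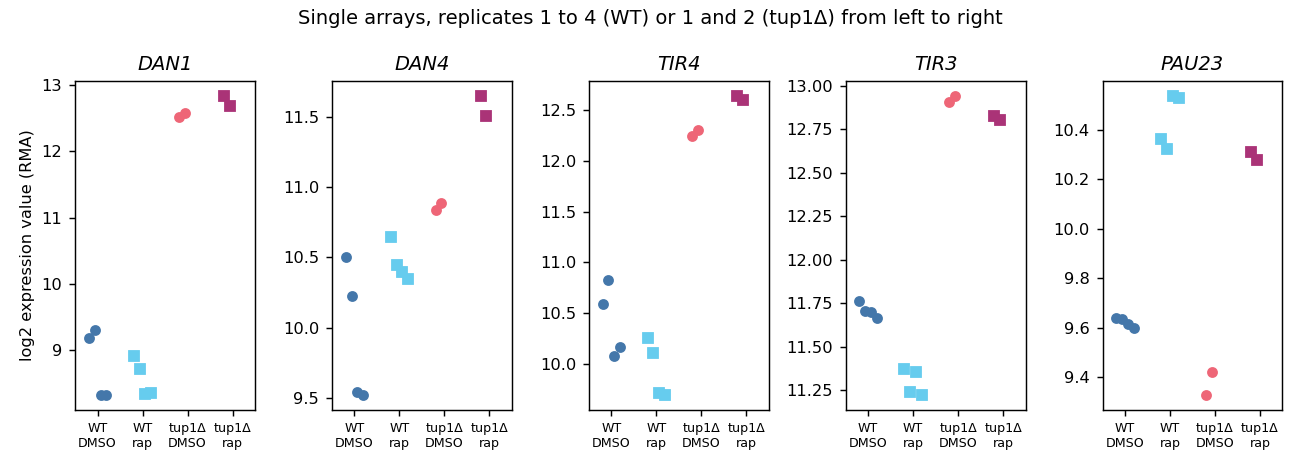
Log2 expression values (y axis, with a separate range for each gene) of *DAN1*, *DAN4*, *TIR4*, *TIR3* and *PAU23* on single arrays, by strain and treatment (rap, rapamycin), with replicates from left to right. *DAN1*, *DAN4* and *TIR4* show WT replicates 1 and 2 above replicates 3 and 4 in DMSO. In *TIR3* and *PAU23* the means of these pairs in DMSO differ by only 0.05 and 0.03. In rapamycin, the mean of replicates 1 and 2 minus that of replicates 3 and 4 is 0.02 in *TIR3* and -0.19 in *PAU23*.

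For *DAN1*, *DAN4* and *TIR4* the WT split was larger in DMSO than in rapamycin. In DMSO, the mean of replicates 1 and 2 minus that of replicates 3 and 4 was 0.92 for *DAN1*, 0.83 for *DAN4* and 0.58 for *TIR4*, while the median absolute difference over all genes was 0.13. Only 1.06%, 1.46% and 4.04% of all genes had a larger absolute difference. In rapamycin the differences were 0.47, 0.18 and 0.48, with a median of 0.13 over all genes. *AUS1*, a sterol importer gene that lies next to *TIR2*, was 12.09, 12.11, 11.46 and 11.42 in WT in DMSO and so split alike. The split was not particular to these genes. *HAP1*, a regulator gene, was 13.08, 13.07, 12.72 and 12.71 there. Among PAU genes the difference in DMSO reached 0.41 (*PAU18*), and some genes went the other way, such as *TIR1* with -0.28. The labels give no batch for these arrays, and what separates the pairs was not tested. The calls in both strain comparisons held with either pair alone for all 19 genes called in DMSO and all 20 called in rapamycin.

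PAU rows moved together but were not copies of each other. Over the 12 arrays, the 210 pairs of PAU genes had a median Pearson correlation of 0.950, with a range from -0.309 to 0.998. These arrays share strains, treatments and cultures, and the strain difference dominates the values. The 91 pairs among the 14 called genes had a median of 0.992, the 15 pairs among the 6 less changed genes with higher values in *tup1Δ* 0.968, and the 84 pairs between these groups 0.876. The 20 pairs with *PAU23* had a median of -0.246. The groups were set by the strain difference that these correlations hold. For deviations from the group means, which leave that difference out, the median was 0.398 over all 210 pairs, with a range from -0.703 to 0.974. It was 0.666 within the 14 genes, 0.685 within the 6, 0.0885 between them and 0.379 for the pairs with *PAU23*. The closest rows, *PAU4* and *PAU20*, still differed by an SD of 0.0821 across arrays.

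Position along the chromosome was described by the order of protein-coding genes in RefSeq R64. Of the 21 PAU genes with values, 16 lay within 10 genes of a chromosome end, and 0 of the other 7 wall genes did. *DAN4* and *DAN1* lay just outside this cut, at places 11 and 12, and *PAU7* was at place 15. The 31 listed genes are spread over all 16 chromosomes. Near the ends, 11 of 16 wall genes (68.8%) were called higher in *tup1Δ* in DMSO, compared with 45 of 258 other genes (17.4%). Farther from the ends, 8 of 12 wall genes (66.7%) were called higher, compared with 173 of 5456 other genes (3.17%). The median log2 fold change of the wall genes was 1.52 near the ends and 1.5 farther away, whereas that of the other genes was 0.13 and -0.08. The 42 direct neighbors that are not wall genes of this list and had values had a median of 0.15, and 7 of them (16.7%) were called higher.

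**Figure D5:**
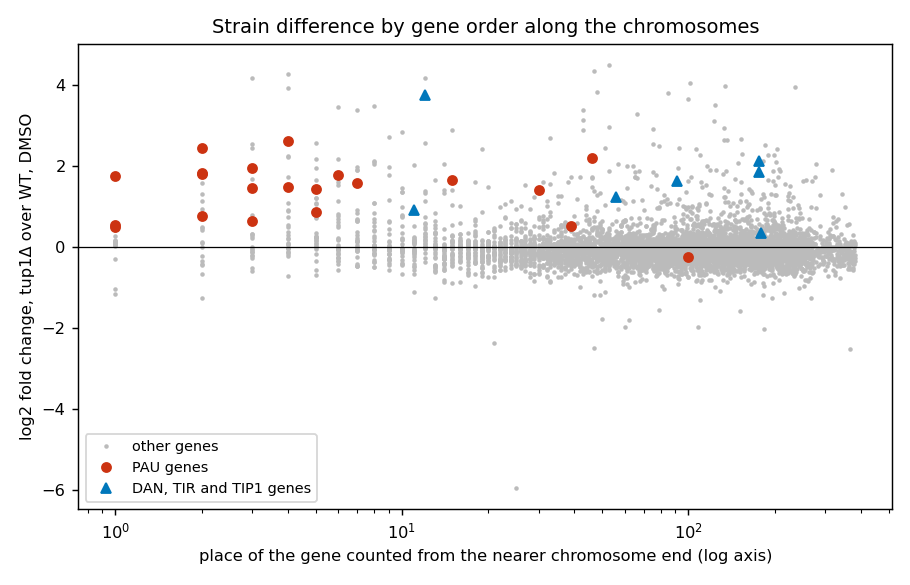
Log2 fold change of *tup1Δ* over WT in DMSO (y axis) against the place of each gene counted from the nearer chromosome end (x axis, log scale), with PAU genes as circles, DAN, TIR and *TIP1* genes as triangles and all other genes as grey dots. Wall genes are high both within 10 genes of an end (median 1.52) and beyond (median 1.5).

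The regulators of these wall genes were examined as a list of 7: *UPC2*, *ECM22*, *SUT1*, *MOT3*, *ROX1*, *HAP1* and *CYC8*. In DMSO, 0 of 7 were called between the strains, and 3 were higher by adjusted p alone, against 4.13% called higher and 15.3% higher by adjusted p alone among all genes. In rapamycin, 2 of 7 were called higher in *tup1Δ*, against 4.52%. *UPC2*, the sterol-sensing activator, was 11.00, 11.04, 10.61 and 10.69 in WT and 12.05 and 12.09 in *tup1Δ* there, with a log2 fold change of 1.24 (SE 0.13, adjusted p = 3.02e-05 in limma), against 0.73 in DMSO. *SUT1*, an activator of sterol uptake genes, was 9.68, 9.64, 9.72 and 9.76 in WT and 11.72 and 11.80 in *tup1Δ*, with a log2 fold change of 2.06, against 0.98 in DMSO. *SUT1* was also the 1 regulator called lower in rapamycin in WT, with -1.44. Its response was the 1 called different between the strains, by 1.08 (adjusted p = 1.63e-05 in limma). By adjusted p alone, 2 of the 7 responses differed between the strains, against 5.77% of all genes. The rapamycin response of *ECM22*, which was not called, was -0.92 in WT and 0.06 in *tup1Δ*.

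*MOT3* and *ROX1*, which encode repressors of hypoxic genes, had log2 fold changes of 0.18 and 0.48 between the strains in DMSO, and *CYC8*, the partner of *TUP1*, had 0.08. The 2 sterol importers that act when oxygen is scarce were both higher in *tup1Δ*. *PDR11* was called in DMSO and in rapamycin, with 1.15 in each. *AUS1* had 0.95 in DMSO (adjusted p = 0.00630 in limma), under the fold threshold, and was called in rapamycin with 1.07.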

How the data were processed

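The authors hybridized Cy3-labeled cDNA to NimbleGen arrays, ran RMA (background subtraction, equal distributions, probe summary) on them jointly with further arrays from their laboratory, and deposited the resulting log2 values. The version of the scanning software is not given in the sources used here. Detection flags, probe signals and sequences were not used here, so low values are limits, and planned protein identities and promoter motifs were not computed. Of 5872 rows, 103 were empty and 5769 had values, and 0 columns went unused. Array number limits the precision.

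The deposited values were fitted with limma 3.58.1 under R 4.3.3 (lmFit, then eBayes, 4 group means, 8 residual and 2.80 prior degrees of freedom) and adjusted by Benjamini-Hochberg over all genes. The fit was tested on simulated data with independent noise on each array, which therefore held no divided cultures. Replicates are separate cultures for each strain, and *tup1Δ* groups of 2 cannot reach p = 0.05 in an exact permutation test (4 against 2 allows 0.0667).

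WT replicate numbers pair divided cultures by the design text. Deviations of paired arrays correlated at 0.745, 0.119, 0.531 and 0.535 over all genes, against 0.0637 in *tup1Δ*. Over the 28 wall genes these correlations were 0.673, 0.613, 0.838 and 0.773, against 0.426 in *tup1Δ*. Alternatives were another quantile normalization, median centring, a filter on the dimmest 25%, other fold thresholds, only the groups compared, a trend with a robust prior, culture blocks, each array left out, and either WT pair alone. Symbols, chromosomes and gene order came from RefSeq R64, which matched 5763 genes.

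All DAN, TIR and TIP1 genes are named, with the PAU genes called in a comparison or highest or lowest in one. From the other lists, genes called or singled out are named. Members and lists were chosen with earlier results of these data known.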

Additional observations from a re-analysis of the deposited data

Results flagged for a closer look

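In WT in rapamycin, replicate 1 stood apart from the other 3 arrays in 2 genes. For *PAU4* it was 10.49, against 10.60, 10.60 and 10.61, a gap of 0.926 of the range of the group. For *PAU17* it was 8.73, against 9.04, 9.06 and 9.10, a gap of 0.835 of the range. Such gaps were looked for in 56 groups of 4 arrays, and chance alone would give about 2.8.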

How the results depend on the processing

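With no fold threshold, the counts for rapamycin went from 0 to 8 genes in WT (6 higher, 2 lower) and from 0 to 9 in *tup1Δ* (8 higher, 1 lower). The count between the strains was 28 in DMSO and 27 in rapamycin with no fold threshold, and 14 in each with a log2 threshold of 1.5. Without the dimmest 25% of genes, 17 of the 28 wall genes were tested, and 15 and 16 were called. With each array left out in turn, 19 to 20 genes were called between the strains in DMSO and 20 to 21 in rapamycin, and 0 for the treatments or their difference between strains. With only WT replicates 1 and 2, 19 and 22 were called, and with only replicates 3 and 4, 20 and 20. With culture as a random replicate block, the counts stayed at 19, 20, 0, 0 and 0, and the fixed block, which could not be fitted between strains, gave 0 for the other comparisons. The block changed no call at the fold threshold. With only the groups compared, the difference between strains could not be fitted. None of these alternatives turned the direction of a called gene. Another quantile normalization brought *PAU16* and *PAU19* in WT in rapamycin to adjusted p-values of 0.0661 and 0.0992 from limma. Comparisons that involve *tup1Δ* are limited by its 2 arrays per group.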

Other observations

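Other wall protein genes were examined as a list of 15. In DMSO, 3 of 15 were called higher in *tup1Δ* and 0 lower, against 4.13% and 0.451% of all genes, and the median log2 fold change was 0.08, against -0.08 over all genes. *PIR3*, a wall protein linked to glucan, was 10.75, 10.73, 10.72 and 10.70 in WT and 12.67 and 12.88 in *tup1Δ*, with a log2 fold change of 2.05 (adjusted p = 0.000283 from limma). *SPI1*, a stress-induced wall protein gene, had 1.49, and *CWP1*, a wall mannoprotein gene, had 1.28. In rapamycin, 2 of 15 were called higher, against 4.52% of all genes, *SPI1* with 2.45 and *PIR3* with 1.39, and *CWP1* had 0.29.

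With rapamycin, 2 of these 15 genes were called in WT, against 13.2% of all genes, and 2 of 15 in *tup1Δ*, against 11.9%. These counts were near the shares of all genes, whereas 0 of the 28 genes described above were called. In WT, *PIR3* rose by a log2 fold change of 2.22 and *PST1* by 1.16, and in *tup1Δ*, *PIR3* rose by 1.57 and *YGP1* by 1.17. The *PIR3* values in WT in rapamycin were 12.41, 12.37, 13.51 and 13.49, so replicates 3 and 4 were the higher pair there. None of the 15 was called for a difference between strains in the response, against 1.16% of all genes, and 4 passed the adjusted p alone, against 5.77%.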
